A study of Mus musculus with 16 samples.

Results

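Glul, Oat, Slc1a2, Slc1a4, Axin2, Lgr5, Rhbg, Slc13a3, Tbx3 and Lhpp are counted among the genes that hepatocytes around the central vein of the liver express under Wnt signalling. These 10 genes, found by their symbols, were followed among the 55401 genes of a table of deposited read counts and FPKM values (fragments scaled for transcript length and library size). All 10 are present in the GENCODE M21 annotation. The series sequenced poly(A) RNA of mouse liver in 16 libraries, with 4 libraries in each of 4 groups. The groups were mice labelled AKR1B10 knockdown given BBR, mice labelled AKR1B10 knockdown without BBR, negative control mice given BBR, and negative control mice without BBR. BBR is not spelled out in the sample labels, but the title of the series names berberine, a plant alkaloid, and fatty liver disease. The sample descriptions carry the prefix AAV in all 4 groups, so the negative controls share whatever it stands for. Strain, age, diet, the dose of BBR, the construct, its target sequence and its promoter are not given in the sources used here.

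Hepatocytes differ along the path of blood from the portal vein to the central vein. Endothelial cells of the central vein secrete Wnt ligands and R-spondins. Where these bind Frizzled and Lgr receptors on neighbouring hepatocytes, β-catenin escapes its destruction complex and acts with TCF/LEF factors to switch on genes of the last hepatocyte layers. Those layers capture the ammonia that the urea cycle further upstream has left over and fix it in glutamine. No Wnt ligand, receptor or β-catenin was altered in these mice as far as the labels say, so Wnt dependence is background here. Neither it nor the position of the cells can be read from RNA of whole liver.

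The stretches shown here precede the transcription start of the most abundant members, Glul and Oat, whose values separated groups, and of Slc1a2, which alone held a TCF/LEF motif. The sequences come from RefSeq (GRCm38.p6), whose promoter table holds windows of 250 bases before to 50 bases after the start for 6 of the 10 members. The other members, Lgr5, Rhbg, Tbx3 and Lhpp, were not matched. The 250 bases before the start are given, 5′ to 3′ on the strand of the gene. Capitals mark CCAAT or its reverse complement ATTGG in Glul and Oat, and the TCF/LEF motif in Slc1a2. Glul, chr1:153899679-153899928, plus strand; Oat, chr7:132576399-132576648, minus strand; Slc1a2, chr2:102706188-102706437, plus strand.
Glul: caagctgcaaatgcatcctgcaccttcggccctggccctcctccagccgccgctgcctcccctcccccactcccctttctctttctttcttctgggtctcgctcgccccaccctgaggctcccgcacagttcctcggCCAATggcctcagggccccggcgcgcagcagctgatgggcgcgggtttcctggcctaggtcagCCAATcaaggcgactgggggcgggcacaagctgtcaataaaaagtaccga
Oat: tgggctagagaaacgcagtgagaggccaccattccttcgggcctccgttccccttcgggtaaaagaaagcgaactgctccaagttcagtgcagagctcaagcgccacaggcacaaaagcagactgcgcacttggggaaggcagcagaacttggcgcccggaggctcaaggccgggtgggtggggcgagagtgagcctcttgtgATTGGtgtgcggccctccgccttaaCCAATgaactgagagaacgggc
Slc1a2: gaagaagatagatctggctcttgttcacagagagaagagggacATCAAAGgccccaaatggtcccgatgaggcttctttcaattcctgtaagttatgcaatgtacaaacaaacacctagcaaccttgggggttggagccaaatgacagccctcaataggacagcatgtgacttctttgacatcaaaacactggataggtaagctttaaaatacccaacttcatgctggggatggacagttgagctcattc

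The TCF/LEF motif was searched as CTTTGAA, the variant CTTTGAT, the variant CTTTGTA and also CTTTGTT, on both strands of the whole windows. It occurred in 1 of the 6 members' windows, that of Slc1a2, as ATCAAAG beginning 207 bases before the start. The start site of this window lies 47779 bases downstream of the start of Slc1a2 in the deposited annotation, so it belongs to another transcript start. Of all 32544 distinct RefSeq promoter windows, 16.9% held the motif at least once. CCAAT, whose letters were chosen after the sequences were seen, occurred in 4 of the 6 windows, with 2 matches each in Glul, Oat and Slc1a4 and 1 in Axin2. Those of Glul began 113 and 50 bases, and those of Oat 47 and 22 bases, before the start. At least 1 CCAAT was found in 37.36% of all windows, and 2 or more in 11.64%. Such matches describe letters in a window and were not tested as binding sites.

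Library totals ran from 46273129 to 54394727 counts in the libraries labelled knockdown with BBR and from 54764510 to 65012872 in the libraries labelled knockdown. They ran from 54570970 to 63244096 in the negative controls with BBR and from 50028526 to 66235443 in the negative controls. Akr1b10, the mouse gene of that name, was not lower in libraries that carry the knockdown label: it ranged from 0.389 to 0.527 FPKM with the label and BBR and from 0.351 to 0.859 FPKM with the label alone. The ranges were 0.194 to 0.565 FPKM in the negative controls with BBR and 0.177 to 0.505 FPKM in the negative controls, so the groups are named here by their labels. Akr1b10 stayed below 1 FPKM in every library, with 47 to 181 counts. A reduction from so low a level would be hard to see, and whether the knockdown worked was not tested. Of the counts, 35.4% were of mitochondrially encoded genes in library 4 labelled knockdown and 10.98% to 15.9% in the other libraries, which lowers the FPKM of other genes in that library. Summed FPKM of 8 acute phase genes was 17613 in library 3 labelled knockdown and 15286 in library 2 of the negative controls with BBR, against 1894 to 5303 in the other libraries. The numbering of libraries follows the labels, which say that these are mice but not how they were housed or paired, so p-values measure the spread between these libraries.

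The members spanned a wide range of levels. By median FPKM over the 16 libraries, which is scaled for transcript length, Oat stood highest at 352, followed by Glul at 198 and Lhpp at 35.6, and this order held in 16 of 16 libraries. Slc1a2 followed at 8.02, Tbx3 at 4.13, Rhbg at 2.98 and Slc13a3 at 2.21 FPKM. Lhpp exceeded Slc1a2 in 16 libraries, but Slc1a2 exceeded Tbx3 in 14, Tbx3 exceeded Rhbg in 13 and Rhbg exceeded Slc13a3 in 12, so these neighbours overlapped. Axin2 (median 0.771 FPKM), Slc1a4 (0.620 FPKM) and Lgr5 (0.397 FPKM) were the lowest. Slc13a3 exceeded Axin2 in 16 of 16 libraries, Axin2 exceeded Slc1a4 in 12 and Slc1a4 exceeded Lgr5 in 14. The filter for the test, 1 FPKM or more in 4 or more libraries, left 8 of the 10 members among 10846 genes. Lgr5, with 184 to 401 counts a library, and Slc1a4, with 98 to 260, missed it and were read from the same fit without a filter, which held 30801 genes.

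**Figure D1:**
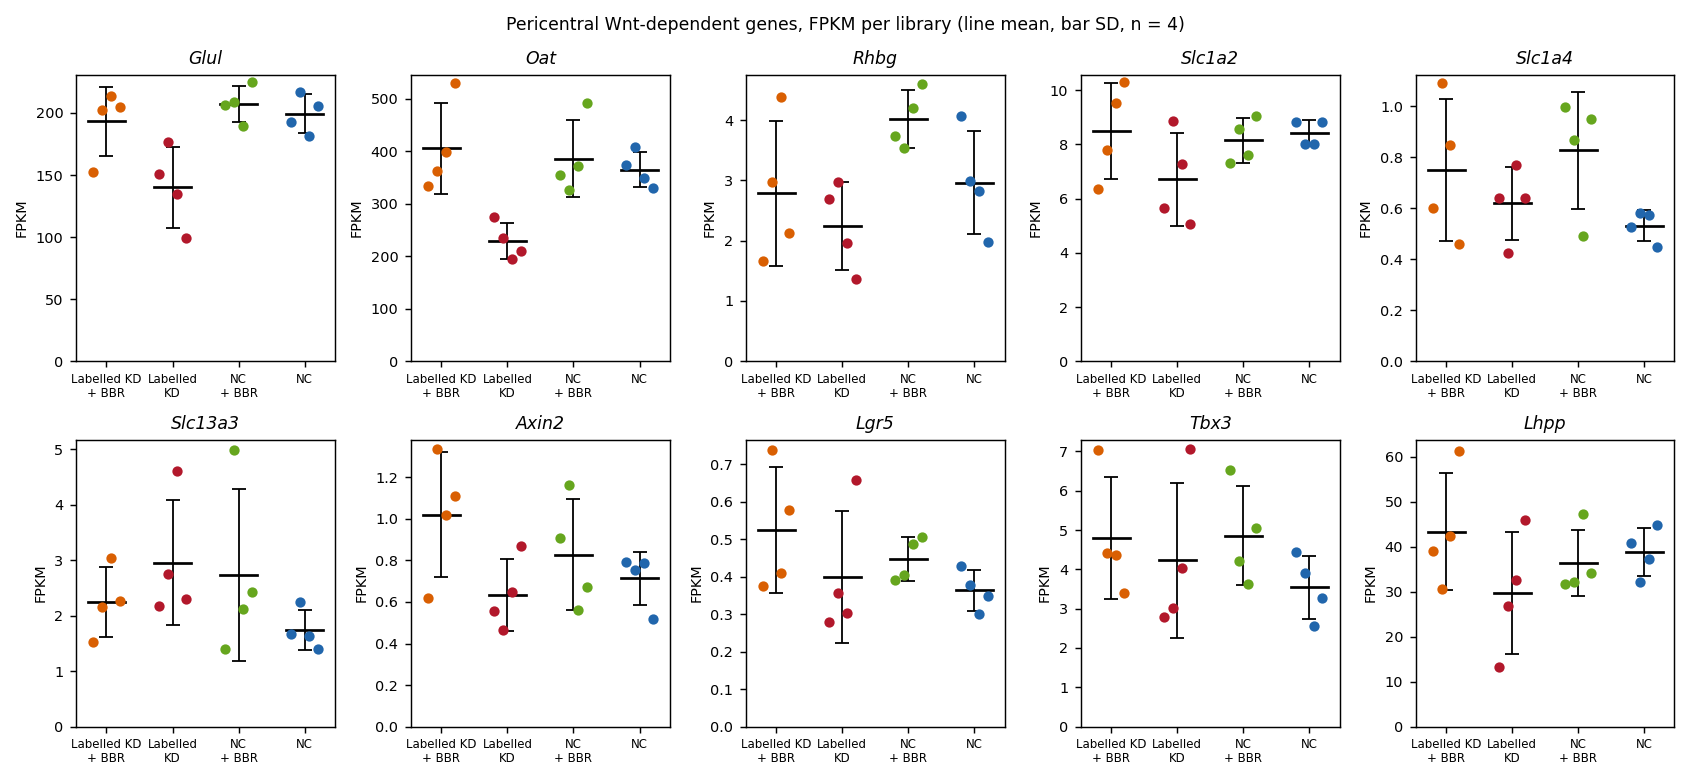
FPKM of the 10 members (vertical axes, each from 0) in the libraries labelled knockdown (KD) with BBR, labelled KD, negative control (NC) with BBR and NC; points are libraries, lines are means and bars are SD (n = 4 each). Oat in the libraries labelled knockdown lies between 195 and 275 FPKM, below every other library, while most other members overlap between groups.

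Glul encodes glutamine synthetase, which joins ammonia to glutamate and is the classical mark of the hepatocytes next to the central vein. The gene (ENSMUSG00000026473; mm10, chromosome 1, 153899944 to 153909723, plus strand) had 152, 203, 213 and 205 FPKM in libraries 1 to 4 labelled knockdown with BBR and 151, 177, 134 and 99.0 FPKM in those labelled knockdown. It had 206, 209, 189 and 225 FPKM in the negative controls with BBR and 193, 217, 181 and 206 FPKM in the negative controls. Every library labelled knockdown was below every negative control, and library 4, with the high mitochondrial share, was the lowest. With BBR, library 1 with the label was low and the other libraries lay within the range of the negative controls with BBR. The means were 193 ± 27.6, 140 ± 32.6, 207 ± 14.4 and 199 ± 15.6 FPKM (SD, n = 4) in the same order of groups.

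Oat encodes ornithine aminotransferase, the mitochondrial enzyme that turns ornithine into a precursor of glutamate and proline and so feeds the synthesis of glutamine. The gene (ENSMUSG00000030934; chromosome 7, 132557478 to 132576398, minus strand) had 333, 362, 398 and 530 FPKM in the libraries labelled knockdown with BBR and 275, 235, 195 and 211 FPKM in those labelled knockdown. It had 355, 327, 372 and 492 FPKM in the negative controls with BBR and 373, 409, 348 and 331 FPKM in the negative controls. The libraries labelled knockdown formed the low group, with no overlap with the other groups. Library 4 was the highest in each of the groups given BBR. The means were 406 ± 86.8, 229 ± 34.9, 386 ± 73.1 and 365 ± 34.0 FPKM (SD, n = 4).

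Together Glul and Oat took 0.0945% to 0.137% of all counts in the libraries labelled knockdown, below the 0.150% to 0.226% of the other libraries. In library 4 labelled knockdown the share is lowered by the mitochondrial counts in its total. On log2 CPM (counts scaled to library size by TMM factors that allow for such composition) both genes again lay below the negative controls in the libraries labelled knockdown, but Glul overlapped between these and the libraries with the label and BBR. Glul lay between 9.23 and 9.80 with the label and BBR, between 9.05 and 9.60 with the label alone and between 9.64 and 9.75 in the negative controls. Oat lay between 9.68 and 10.44 with the label and BBR, between 8.98 and 9.53 with the label alone and between 9.73 and 9.99 in the negative controls.

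Setting libraries labelled knockdown against negative controls, without BBR, asks what goes with the knockdown label alone. By the quasi-likelihood test of edgeR after Benjamini-Hochberg adjustment, 0 of the 10 members and 0 of the 10846 genes tested (0%) were called at an adjusted p under 0.05. At an unadjusted p under 0.05, 2 members were lower, where 6.45% of all genes tested were, and 1 was higher, where 8.33% were. Glul had a log2 fold change of -0.41 (SE 0.15, 95% interval -0.73 to -0.08, unadjusted p 0.0168, adjusted p 0.290 by edgeR's quasi-likelihood test). Oat had a log2 fold change of -0.56 (SE 0.18, interval -0.94 to -0.17, unadjusted p 0.00752, adjusted p 0.267 by the same edgeR test). Both were lower in 4 of 4 libraries than in any negative control. Groups separated downwards in this way made up 4.55% of all genes tested in FPKM and 2.52% in log2 CPM. Without library 3 labelled knockdown, where Oat was lowest and the acute phase sum highest, the log2 fold change of Oat was -0.45. Libraries 3 and 4 labelled knockdown, the lowest of their group for Glul, were left out because their Glul was farthest from the median. This had to bring the log2 fold change of Glul nearer to 0, and it was -0.22. Leaving out library 2, the highest of that group, had to move it the other way. It was then -0.52 (adjusted p 0.0544 by edgeR's quasi-likelihood test), and edgeR called 621 genes and 0 members. In a bulk liver, fewer pericentral hepatocytes and less RNA per such cell cannot be told apart. DESeq2, the other count test run, called 105 genes in this comparison and none of the members, with an adjusted p of 0.0974 for Oat.

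With BBR in both groups, the comparison of the knockdown label with the negative controls gave values nearer to 0 for this pair. Glul had a log2 fold change of -0.16 (SE 0.15, adjusted p 0.995 by edgeR's quasi-likelihood test) and Oat of 0.03 (SE 0.18, adjusted p 0.999 by the same test). Of the genes tested, edgeR called 0 (0%), with 496 at an unadjusted p under 0.05, none of them a member, and DESeq2 called 5 genes.

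In the libraries labelled knockdown, BBR against none asks whether BBR acts under the label. Oat was higher in every library with BBR than in any without it, with a log2 fold change of 0.67 (SE 0.18, interval 0.28 to 1.05, unadjusted p 0.00209, adjusted p 0.396 by edgeR's quasi-likelihood test). It stood 52nd of the 10846 genes by p. Groups separated upwards made up 4.58% of all genes tested in FPKM and 2.2% in log2 CPM. Glul had a log2 fold change of 0.32 (SE 0.15, interval -0.00 to 0.64, unadjusted p 0.0502, adjusted p 0.526 by the same test), and 0.15 without libraries 3 and 4 labelled knockdown. Those libraries had the lowest Glul of their group, so leaving them out had to lower this value. Without library 2, the highest of that group, it was 0.43. Of the genes tested 0 (0%) were called by edgeR and 1028 had an unadjusted p under 0.05, and Oat was the only member among them, where 4.27% of all genes were higher at that level. DESeq2 called 55 genes and no member, with an adjusted p of 0.0504 for Oat. This comparison shares its libraries without BBR with the comparison of the label alone, so a low value in those libraries enters both.

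In the negative controls, BBR against none gave log2 fold changes of 0.07 (SE 0.15, adjusted p 0.999 by edgeR's quasi-likelihood test) for Glul and 0.09 (SE 0.18, adjusted p 0.999) for Oat. This comparison shares the negative controls without BBR with that of the label alone. Here edgeR called 0 genes (0%), with 399 at an unadjusted p under 0.05, and DESeq2 called 3. The interaction, the BBR effect under the label minus that in the negative controls, was 0.25 (SE 0.21, adjusted p 0.815 by edgeR) for Glul. For Oat it was 0.58 (SE 0.25, interval 0.04 to 1.12, unadjusted p 0.0369, adjusted p 0.756 by edgeR). The interaction test by edgeR called 0 genes (0%), with 711 at an unadjusted p under 0.05, and DESeq2 called 10. A higher interaction at that level was seen for 2.71% of genes and a lower one for 3.84%, against 1 member in each direction.

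**Figure D2:**
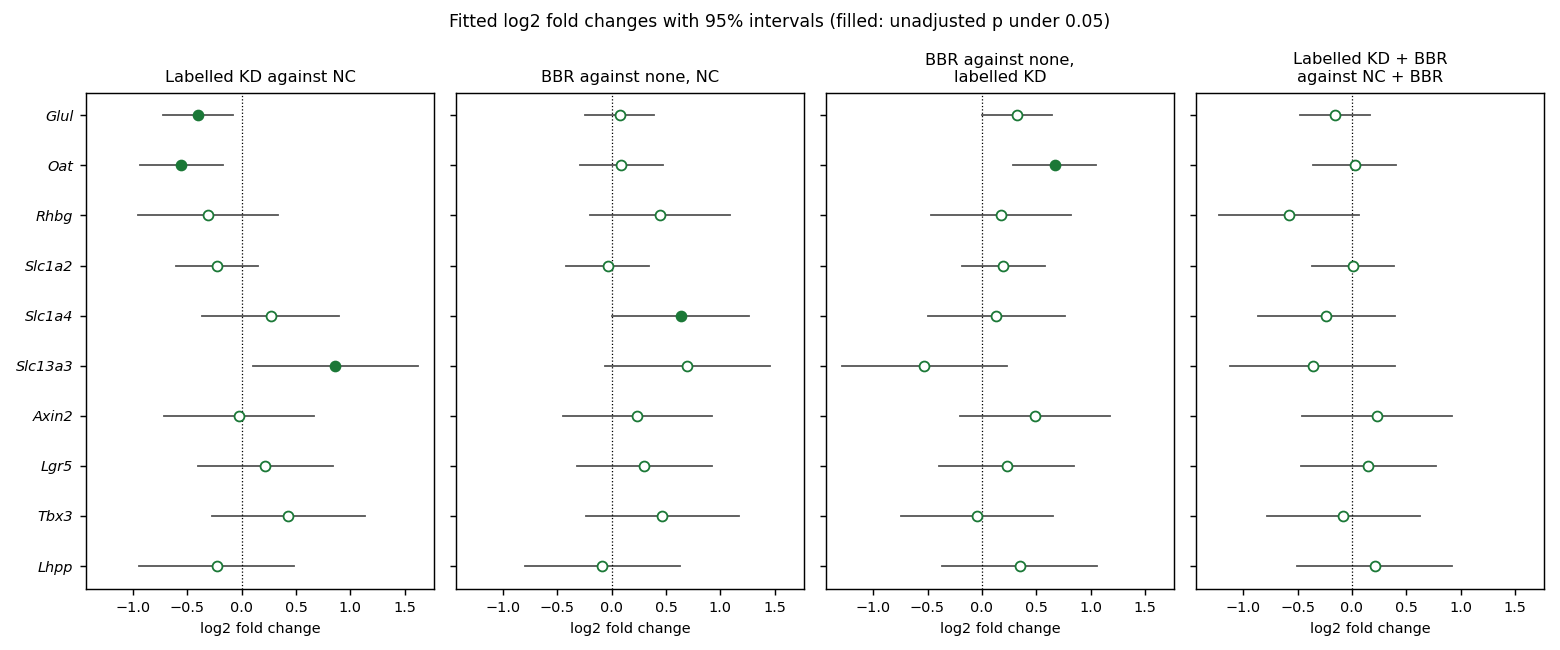
Fitted log2 fold changes of the 10 members (horizontal axes) with 95% intervals in 4 comparisons, from edgeR over all 16 libraries; filled points have an unadjusted p under 0.05 and no point passed adjustment. Glul and Oat lie at -0.41 and -0.56 in the first panel, and Oat at 0.67 with BBR under the knockdown label.

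Of the 4 transporters, Rhbg carries ammonia across the hepatocyte membrane, beside glutamine synthetase in the same cells. Rhbg (ENSMUSG00000104445; chromosome 3, 88242874 to 88254709, minus strand) had 1.66, 2.98, 4.39 and 2.12 FPKM in the libraries labelled knockdown with BBR and 2.69, 2.98, 1.96 and 1.36 FPKM in those labelled knockdown. It had 3.74, 3.54, 4.21 and 4.60 FPKM in the negative controls with BBR and 4.07, 2.99, 2.82 and 1.98 FPKM in the negative controls. The negative controls with BBR had the highest mean, 4.02 ± 0.474 FPKM (SD, n = 4), and the least spread, and all the other groups overlapped. Of the 4 comparisons fitted between groups, the knockdown label against the negative controls, both with BBR, had the log2 fold change farthest from 0, -0.58 (SE 0.30, adjusted p 0.995 by edgeR's quasi-likelihood test).

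Slc1a2 (ENSMUSG00000005089; chromosome 2, 102658659 to 102790784, plus strand) encodes GLT-1, a high-affinity glutamate transporter that supplies the substrate of glutamine synthetase. It had 6.36, 7.79, 9.51 and 10.3 FPKM in the libraries labelled knockdown with BBR and 5.65, 8.87, 7.26 and 5.07 FPKM in those labelled knockdown. It had 7.32, 8.58, 7.61 and 9.06 FPKM in the negative controls with BBR and 8.84, 8.02, 8.02 and 8.82 FPKM in the negative controls. Libraries 1, 3 and 4 labelled knockdown were below every negative control and library 2 above them, so the groups overlapped. The log2 fold change with the label alone was -0.23 (SE 0.18, interval -0.61 to 0.15, adjusted p 0.540 by edgeR's quasi-likelihood test).

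Slc1a4 (ENSMUSG00000020142; chromosome 11, 20302180 to 20332713, minus strand) encodes ASCT1, an exchanger of small neutral amino acids. It had 0.601, 1.09, 0.847 and 0.459 FPKM in the libraries labelled knockdown with BBR and 0.640, 0.426, 0.769 and 0.640 FPKM in those labelled knockdown. It had 0.998, 0.867, 0.491 and 0.951 FPKM in the negative controls with BBR and 0.527, 0.581, 0.573 and 0.447 FPKM in the negative controls. Of the negative controls with BBR, 3 libraries lay above every negative control without it and library 3 lay among them. Its log2 fold change with BBR in the negative controls was 0.64 (SE 0.30, interval 0.00 to 1.27, unadjusted p 0.0488, adjusted p 0.708 by edgeR's quasi-likelihood test without a filter). In that fit 2.23% of genes were higher at an unadjusted p under 0.05. On log2(FPKM + 1), a scale that compresses low values, the difference was 0.25.

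Slc13a3 (ENSMUSG00000018459; chromosome 2, 165405028 to 165473230, minus strand) encodes NaDC3, which takes up dicarboxylates such as succinate and α-ketoglutarate with sodium. It had 1.52, 2.17, 3.04 and 2.26 FPKM in the libraries labelled knockdown with BBR and 2.17, 2.76, 4.61 and 2.30 FPKM in those labelled knockdown. It had 1.41, 4.98, 2.13 and 2.43 FPKM in the negative controls with BBR and 1.67, 2.25, 1.64 and 1.40 FPKM in the negative controls. The 2 highest values of the series, 4.98 and 4.61 FPKM, fell in the 2 libraries with the highest acute phase sums. Slc13a3 with the label alone had a log2 fold change of 0.86 (SE 0.36, interval 0.10 to 1.63, unadjusted p 0.0292, adjusted p 0.311 by edgeR's quasi-likelihood test). It overlapped in FPKM between these groups. In log2 CPM it did not, at 3.70 to 4.73 with the label against 3.00 to 3.63 without, a separation upwards seen for 2.36% of all genes tested. The interaction was -1.22 (SE 0.50, interval -2.30 to -0.15, unadjusted p 0.0283, adjusted p 0.756 by the same test). Without library 3 labelled knockdown the log2 fold change with the label was 0.63, without library 2 of the negative controls with BBR the interaction was -0.71, and without both libraries these values were 0.65 and -0.48.

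**Figure D3:**
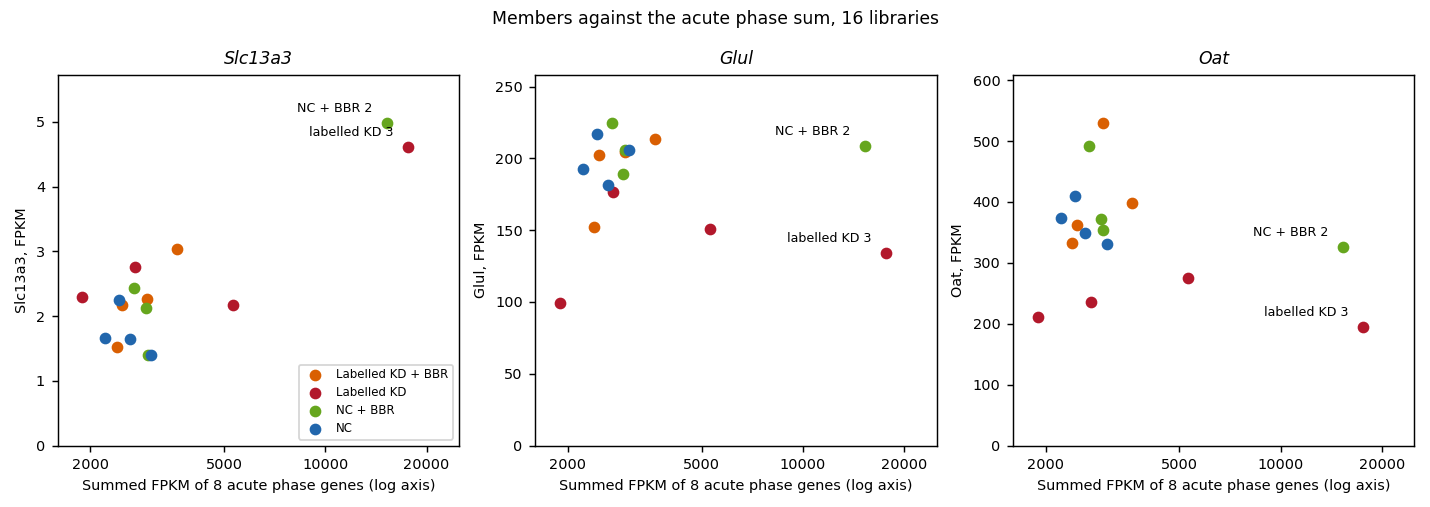
Slc13a3, Glul and Oat (vertical axes, FPKM) against the summed FPKM of Saa1, Saa2, Saa3, Orm1, Orm2, Lcn2, Hp and Apcs (horizontal log axes) in 16 libraries coloured by group. Slc13a3 is highest, at 4.98 and 4.61 FPKM, in the 2 libraries with sums of 15286 and 17613, whereas Glul has 209 and 134 FPKM in those libraries. Oat has 327 and 195 FPKM there, the lowest value of its group in each case.

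Axin2, Lgr5 and Tbx3 belong to the Wnt pathway itself. Axin2 (ENSMUSG00000000142; chromosome 11, 108920349 to 108950783, plus strand) is a scaffold of the β-catenin destruction complex and a widely used readout of Wnt signalling, since β-catenin switches it on as its own brake. It had 0.620, 1.34, 1.02 and 1.11 FPKM in the libraries labelled knockdown with BBR and 0.558, 0.465, 0.647 and 0.870 FPKM in those labelled knockdown. It had 0.909, 1.16, 0.562 and 0.674 FPKM in the negative controls with BBR and 0.790, 0.755, 0.788 and 0.520 FPKM in the negative controls. In FPKM libraries 2, 3 and 4 with the label and BBR lay above every library with the label alone and library 1 lay among them, but in log2 CPM only library 2 lay above all of them. With BBR under the label the log2 fold change was 0.49 (SE 0.32, interval -0.20 to 1.18, adjusted p 0.644 by edgeR's quasi-likelihood test). With the label alone it was -0.02 (SE 0.32, interval -0.71 to 0.66, adjusted p 0.977 by the same test), a width that holds both a lower and a higher level.

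Lgr5 (ENSMUSG00000020140; chromosome 10, 115450311 to 115587780, minus strand) encodes the R-spondin receptor that protects Frizzled receptors from removal. It had 0.374, 0.739, 0.409 and 0.577 FPKM in the libraries labelled knockdown with BBR and 0.279, 0.355, 0.302 and 0.658 FPKM in those labelled knockdown. It had 0.390, 0.404, 0.486 and 0.506 FPKM in the negative controls with BBR and 0.428, 0.376, 0.300 and 0.347 FPKM in the negative controls. All pairs of groups overlapped, and library 4 labelled knockdown stood apart from the other libraries of its group. Its log2 fold changes ran from 0.15 to 0.30 in the 4 comparisons, each with an SE of about 0.30 and an adjusted p of 0.868 or more by edgeR's quasi-likelihood test without a filter.

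Tbx3 (ENSMUSG00000018604; chromosome 5, 119670669 to 119684724, plus strand) encodes a T-box repressor of transcription that is a β-catenin target in liver. It had 7.03, 4.41, 4.37 and 3.39 FPKM in the libraries labelled knockdown with BBR and 2.78, 3.03, 4.05 and 7.06 FPKM in those labelled knockdown. It had 6.52, 4.22, 3.62 and 5.06 FPKM in the negative controls with BBR and 4.43, 3.91, 2.57 and 3.28 FPKM in the negative controls. The highest library of a group held up to 2.54 times its lowest, and all groups overlapped. The antisense gene Tbx3os1 overlaps Tbx3 and had up to 2483 counts a library. Its highest level, 13.2 FPKM, fell in library 4 labelled knockdown, where Tbx3 was highest too. Whether the counting used strand is not given in the sources used here, so the reads of this pair cannot be told apart. Tbx3 with the label alone had a log2 fold change of 0.43 (SE 0.33, interval -0.28 to 1.13, adjusted p 0.533 by edgeR's quasi-likelihood test).

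Lhpp (ENSMUSG00000030946; chromosome 7, 132610638 to 132706420, plus strand) encodes a histidine and lysine phosphatase. It had 39.0, 30.5, 42.5 and 61.3 FPKM in the libraries labelled knockdown with BBR and 13.3, 26.8, 32.5 and 46.0 FPKM in those labelled knockdown. It had 31.8, 32.2, 47.3 and 34.0 FPKM in the negative controls with BBR and 40.9, 32.2, 37.2 and 44.9 FPKM in the negative controls. Library 1 labelled knockdown was the lowest of the series and the groups overlapped. Lhpp begins 34239 bases from Oat, on the opposite strand, and the 2 genes annotated between them, Nkx1-2 and Gm16764, had 0 counts in every library. In library 1 labelled knockdown Lhpp was at its lowest, while Oat was at the highest of its group. Both had their highest values of the series, 61.3 FPKM for Lhpp and 530 FPKM for Oat, in library 4 labelled knockdown with BBR. Over the 16 libraries the log2 CPM of the 2 genes had a Pearson r of 0.348, and of 0.125 with the group means removed. Both overlap the annotated span of Fgfr2, which had at most 1290 counts a library, against at least 28122 for Oat and 2053 for Lhpp.

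The directions of the fitted values were counted over the 10 members, whether or not a value differed from 0. With the label alone 4 of the 10 had a positive log2 fold change and 6 a negative one, and the median was -0.13, beside 0.02 over all genes tested. That median was 0.06 without library 1 labelled knockdown. With BBR under the label 8 were positive and 2 negative, with a median of 0.21 beside -0.03 over all genes. BBR in the negative controls gave 8 positive and 2 negative values, with a median of 0.27 beside -0.00, and 0.15 without library 2 of the negative controls with BBR. With the label under BBR 5 were positive and 5 negative (median -0.04, beside -0.01), and the interaction gave the same split (median 0.08, beside -0.01). The values of Slc1a4 and Lgr5 in these medians come from the fit without a filter.

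The libraries also show how the members vary from mouse to mouse. Over the 16 libraries, log2 CPM of Glul was correlated with that of Slc1a2 (Pearson r 0.737, Spearman rho 0.685), Oat (r 0.730, rho 0.785) and Rhbg (r 0.703, rho 0.618). The permutation test gave adjusted p-values of 0.0272, 0.0285 and 0.0349 over the 10847 genes compared with Glul. These are 3 of 9 members, where 10.8% of all genes were called. Ranked by Spearman's rho no gene was called (0%). The 2 libraries whose Glul was farthest from the median were libraries 3 and 4 labelled knockdown, and without them 0 genes (0%) were called, with an r of 0.781 for Slc1a2, 0.553 for Oat and 0.574 for Rhbg. With the group means removed, 0 genes (0%) were called, with an r of 0.748 for Slc1a2, 0.645 for Rhbg and 0.431 for Oat, which for Oat is lower than over the groups. Leaving out libraries in turn, 0 members were called without library 1 or library 4 labelled knockdown and 1 without library 3. Without any other single library 2 or 3 members were called. The size of r moved less for Slc1a2 than for Oat and Rhbg without library 1 or 3, but more than for Oat without library 4. Without library 1 it was 0.727 for Slc1a2, 0.717 for Oat and 0.719 for Rhbg. For the same genes it was 0.767, 0.630 and 0.669 without library 3, and 0.713, 0.735 and 0.638 without library 4.

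The other members were not called. The r with Glul was 0.197 for Axin2, 0.0415 for Lgr5 and -0.35 for Tbx3, and 0.0712, 0.0703 and -0.108 for Slc1a4, Lhpp and Slc13a3. Without libraries 3 and 4 labelled knockdown it was 0.485 for Axin2, 0.383 for Lgr5 and -0.0021 for Tbx3, and 0.290, 0.425 and 0.422 for Slc1a4, Lhpp and Slc13a3, so these values rest on those libraries. Over all 16 libraries their adjusted p-values were 0.354 to 0.935 by the permutation test. The 5th and 95th percentiles over all genes were -0.644 and 0.686, so correlation with Glul of either sign was common in these libraries. The adjusted p-value was 0.0197 for the 5 genes most like Glul but 0.0200 for Anp32b: Gm7862 (r 0.899), Anp32b (r 0.898), Gm10282 (r 0.887), Idh2 (r 0.885) and Gulo (r 0.884). Gulo, a pericentral gene of vitamin C synthesis, kept an r of 0.900 with the group means removed. Idh2 is the mitochondrial isocitrate dehydrogenase, Anp32b is a nuclear histone chaperone, and the other 2 are predicted genes.

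**Figure D4:**
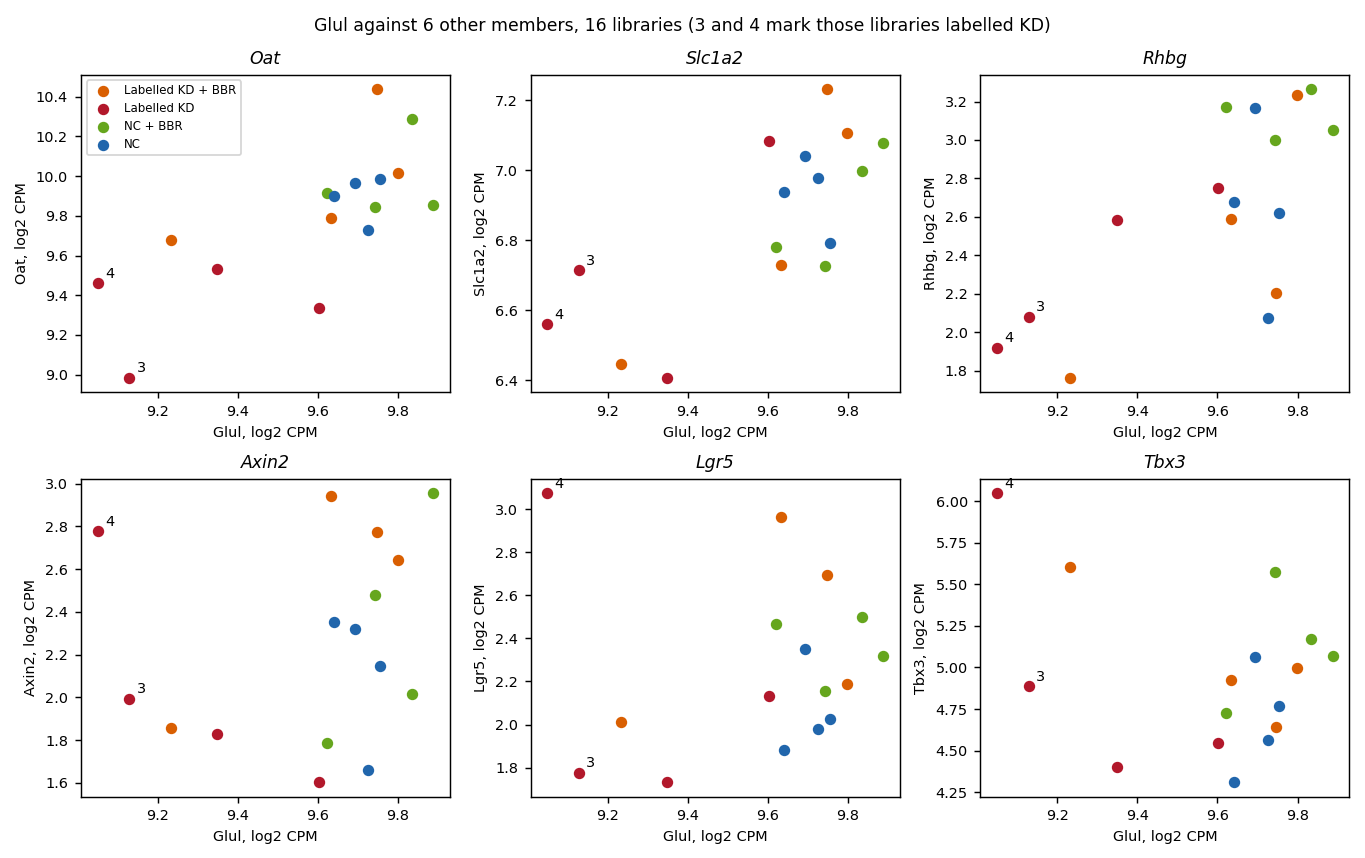
Log2 CPM of 6 members (vertical axes) against that of Glul (horizontal axes) in 16 libraries coloured by group, with libraries 3 and 4 labelled knockdown numbered. Oat, Slc1a2 and Rhbg are low where Glul is low (r 0.730, 0.737 and 0.703), whereas Axin2, Lgr5 and Tbx3 are at or near their highest in library 4 labelled knockdown, where Glul is lowest.

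**Figure D5:**
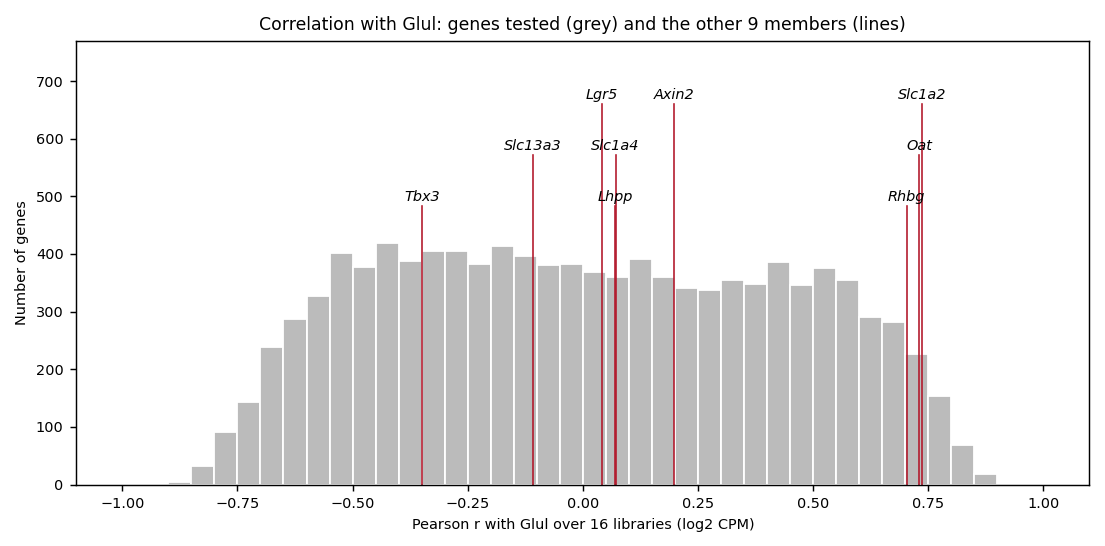
Histogram of the Pearson r with Glul over 16 libraries (horizontal axis) for the genes tested (vertical axis, number of genes), with the other 9 members as lines. Slc1a2, Oat and Rhbg lie towards the right of the histogram, with 2.78%, 3.02% and 4.16% of genes at an r at least as high. The other members lie within the bulk. Counting both directions, 10.8% of all genes were called.

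Beyond the 10, genes of the same zone and pathway were read from lists chosen with earlier results of these data known. Of 25 other pericentral genes 24 were tested, with 0 called in any comparison by edgeR. With the label alone 7 had positive and 17 negative log2 fold changes (median -0.19, beside 0.02 over all genes tested). At an unadjusted p under 0.05, 1 was higher, where 8.33% of all genes tested were, and 3 were lower, where 6.45% were. Cldn2, a tight junction protein, averaged 8.84 FPKM in the libraries labelled knockdown against 15.9 FPKM in the negative controls (log2 fold change -0.75, SE 0.23). Cyp8b1, the sterol 12α-hydroxylase of bile acid synthesis, averaged 160 against 323 FPKM (-0.91, SE 0.30), and Cyp2c29, a cytochrome P450 of fatty acid epoxidation, 110 against 246 FPKM (-1.08, SE 0.49). Susd4, an inhibitor of complement, averaged 6.78 against 1.73 FPKM (2.11, SE 0.63). The adjusted p of these genes lay between 0.267 and 0.322 by edgeR's quasi-likelihood test.

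With BBR under the label, 17 of the 24 other pericentral genes had positive log2 fold changes (median 0.16, beside -0.03 over all genes tested). Cyp1a2, the P450 that metabolises caffeine, averaged 237 FPKM with BBR against 142 FPKM without (log2 fold change 0.60, SE 0.19), and Cldn2 14.0 against 8.84 FPKM (0.51, SE 0.23). The adjusted p was 0.396 and 0.509 by edgeR's quasi-likelihood test. BBR in the negative controls gave a median of -0.08 over the list. Susd4 averaged 6.34 against 1.73 FPKM there (1.89, SE 0.62), but its groups overlapped, at 1.79 to 10.8 against 1.32 to 1.97 FPKM. Avpr1a, the vasopressin receptor, averaged 8.71 against 4.94 FPKM (0.82, SE 0.29). Aldh3a2, the fatty aldehyde dehydrogenase, averaged 90.0 against 146 FPKM (-0.69, SE 0.30). Susd4, Avpr1a and Aldh3a2 each had an adjusted p of 0.999 there by edgeR's quasi-likelihood test. With the label under BBR the median was 0.00, and Sult5a1, a sulfotransferase, averaged 1.23 against 2.22 FPKM (-0.90, SE 0.37, adjusted p 0.995 by edgeR).

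Of 24 periportal genes, those of the opposite end of the hepatocyte plate, all 24 were tested and 0 called. Their medians were -0.04 with the label alone, 0.06 with BBR in the negative controls, -0.05 with BBR under the label and -0.24 with the label under BBR. Hsd17b13, a lipid droplet dehydrogenase, with the label alone averaged 89.8 against 141 FPKM (log2 fold change -0.56, SE 0.24), and Ctsc, a lysosomal protease, 6.98 against 4.16 FPKM (0.82, SE 0.33). Aldh1b1, a mitochondrial aldehyde dehydrogenase, had log2 fold changes of 0.49 (SE 0.18) with BBR in the negative controls and -0.46 (SE 0.18) with the label under BBR. Cdh1, E-cadherin, averaged 4.67 FPKM with BBR against 2.56 FPKM without in the negative controls (0.87, SE 0.40). The adjusted p of these genes was 0.303 or more by edgeR's quasi-likelihood test.

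The list of glutamine, glutamate and ornithine handling, 20 of 32 genes tested, held 0 called genes and a median of -0.07 with the label alone. The median over all genes tested was 0.02. At an unadjusted p under 0.05 there, 2 genes were higher, where 8.33% of all genes tested were, and 4 lower, where 6.45% were. The naming rule gave the 4 lower genes, and the 2 higher ones are not named. Aldh4a1, which makes glutamate from the product of Oat, averaged 33.9 against 55.9 FPKM (log2 fold change -0.60, SE 0.20). Odc1, ornithine decarboxylase, which makes putrescine from ornithine, averaged 4.39 against 11.1 FPKM (-1.25, SE 0.41). The aspartate aminotransferases Got1 and Got2 averaged 35.6 against 69.1 FPKM (-0.90, SE 0.35) and 85.7 against 136 FPKM (-0.59, SE 0.25). With the label under BBR, Got1 averaged 40.4 against 98.0 FPKM (-1.35, SE 0.36) and Slc25a15, the mitochondrial ornithine carrier, 31.2 against 40.4 FPKM (-0.44, SE 0.20). The adjusted p of these genes was 0.267 or more by edgeR's quasi-likelihood test.

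Upstream of the members, the Wnt ligands and R-spondins were scarce. Of 14 listed, 1 was tested, Wnt5b, which averaged 1.29 FPKM with BBR against 1.70 FPKM without under the label (log2 fold change -0.56, SE 0.26, adjusted p 0.524 by edgeR's quasi-likelihood test). Rspo3, the R-spondin of the central vein, averaged 0.869 ± 0.561, 0.491 ± 0.253, 0.650 ± 0.172 and 0.857 ± 0.491 FPKM (SD, n = 4) with the label and BBR, with the label alone, in the negative controls with BBR and in the negative controls. Wnt2 averaged 0.552 ± 0.142, 0.502 ± 0.297, 0.489 ± 0.220 and 0.403 ± 0.179 FPKM in the same order, and Wnt9b stayed at or below 0.439 FPKM. These spreads are as wide as the differences between the groups. Of 17 central vein and sinusoidal endothelial genes 7 were tested, and Stab2, a scavenger receptor, averaged 3.54 against 2.19 FPKM with the label alone (0.87, SE 0.33, adjusted p 0.290 by edgeR).

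Receptors and their ubiquitin ligases, 9 of 19 tested, had 0 genes at an unadjusted p under 0.05 in the 4 comparisons and medians from -0.23 with the label alone to 0.03 with BBR under the label. Ctnnb1, β-catenin, averaged 18.0 ± 2.29, 14.5 ± 4.13, 20.1 ± 0.602 and 18.3 ± 1.27 FPKM (SD, n = 4) in the same order of groups. It ran from 9.04 to 18.9 FPKM with the label alone, which overlapped the 17.0 to 19.9 FPKM of the negative controls. The libraries labelled knockdown include library 4, where mitochondrial counts lower the FPKM of other genes. Of β-catenin, its destruction complex and the TCF factors, 16 of 22 were tested. With the label alone, 0 of them were lower at an unadjusted p under 0.05. Tcf7 averaged 1.20 FPKM with the label and BBR, against 0.524 FPKM with the label alone (log2 fold change 1.02, SE 0.31). The negative controls with BBR had 0.620 FPKM (0.91, SE 0.31). Tcf7 had only 51 to 247 counts a library, and which liver cells made it was not tested. Dvl1, a transducer next to Frizzled, averaged 17.5 against 12.7 FPKM with the label alone (0.62, SE 0.25), and Dvl3 3.58 against 2.70 FPKM with the label under BBR (0.35, SE 0.16). Of 20 inhibitors and other feedback targets 7 were tested. Notum, a secreted Wnt deacylase, averaged 15.5 ± 4.39, 14.9 ± 2.62, 13.7 ± 4.16 and 14.4 ± 1.92 FPKM, with no group apart. Sox9, a β-catenin target also made by bile duct cells, averaged 1.03 FPKM with the label alone (0.73, SE 0.30) and 1.17 FPKM with BBR in the negative controls (0.82, SE 0.30), against 0.673 FPKM in the negative controls. The adjusted p of these genes was 0.305 or more by edgeR's quasi-likelihood test.

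Markers of other cells were read beside Glul and Oat, with 0 called, and their part in the values of the members was not tested. Of 10 macrophage genes 9 were tested, and with the label alone 9 had positive log2 fold changes, 8 of them at an unadjusted p under 0.05, where 8.33% of all genes tested were higher. All 9 were also positive with BBR in the negative controls (median 0.50) and negative with BBR under the label (median -0.50). With the label under BBR 5 were positive and 4 negative. The summed FPKM of the 10 was 52.9 to 147 with the label and BBR, 80.1 to 251 with the label alone, 42.7 to 124 in the negative controls with BBR and 43.4 to 103 in the negative controls. The 251 was in library 3 labelled knockdown, which also had the highest acute phase sum. The 6 neutrophil genes summed to 0.522 to 279 FPKM with the label alone, highest in library 3, and to 0.303 to 1.58 FPKM in the negative controls, where Ly6g and Mmp8 were at 0. Both sums overlapped between these groups. Hepatocyte genes, 7 of 8 found, summed to 33075 to 40664, 20277 to 42111, 33057 to 38662 and 35320 to 39504 FPKM in the 4 groups in the same order, with the 20277 in library 4 labelled knockdown. These genes mark all hepatocytes, and had a median log2 fold change of -0.07 with the label alone.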

How the data were processed

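Poly(A) RNA of 16 mouse livers was sequenced as stranded paired reads, per the labels' protocols. A table with whole counts and FPKM was deposited by the authors for 55401 Ensembl genes, per the file headers. The deposited FPKM values were scaled by the authors for transcript length and library total, hold 0.0001 where the count is 0, and are not corrected for composition. Per the submitters' processing notes, the tools on mm10 included HISAT2 2.0.4, StringTie 1.3.4d, cutadapt 1.9, DESeq2 and edgeR. Their roles, the counting tool and its use of strand are not given in the sources used here. Counts of 4 were more frequent (760 to 1283 genes a library) than counts of 5 (144 to 208), so a deposited count is not always 1 fragment and members with few counts, such as Slc1a4, Rhbg, Axin2 and Lgr5, may be less precise than their counts imply. Identical values were found in 0 pairs of libraries.

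The counts were tested with edgeR 4.0.16 (R 4.3.3), by glmQLFit and glmQLFTest with TMM factors and 4 group means over all 16 libraries, two-sided, with Benjamini-Hochberg adjustment at 0.05 over the 10846 genes that had 1 FPKM or more in 4 or more libraries. SE is the fold change divided by the square root of F, and intervals are at 95%. Correlations used log2 CPM with a prior count of 2 and 100000 permutations. The statistics were tested on simulated data. The members, the lists and the alternatives were chosen with earlier results of these data known. The genes named are the 10 members, list genes with an unadjusted p under 0.05 and at least 1 FPKM in the higher group (at most 4 a list and comparison, by smallest p), and the 5 genes most like Glul; Ctnnb1, Rspo3, Wnt2, Wnt9b, Notum and genes overlapping members were added after their values were seen. A gene that the naming rule gives is not reported here.

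Alternatives were median-of-ratios scaling, no filter or a filter at FPKM 5, DESeq2 1.42.0, limma 3.58.1 on log2(FPKM + 1) and log2(FPKM + 0.1), a robust fit, only the groups compared, a replicate block, leaving out each library in turn, libraries 3 and 4 labelled knockdown left out, library 3 labelled knockdown and library 2 of the negative controls with BBR left out, and tests without mitochondrially encoded genes.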

Additional observations from a re-analysis of the deposited data

Results flagged for a closer look

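In 2 of the 40 groups of 4 values (10 members in 4 groups), the highest or lowest library lay far from the rest, its gap to the nearest library divided by the range of the group being above 0.829, Dixon's critical value for 4 values. Chance alone gives about 1 in 20, or 2 of 40. Axin2 in the negative controls was lowest in library 4, at 0.520 FPKM, with 0.755 to 0.790 FPKM in the other libraries (gap 0.869 of the range). Lhpp in the negative controls with BBR was highest in library 3, at 47.3 FPKM, with 31.8 to 34.0 FPKM in the other libraries (gap 0.855 of the range).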

How the results depend on the processing

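Under the 28 alternatives, 27 for the interaction, 0 of the 10 members were called in any comparison, and the fold changes recomputed (Glul in every comparison, Oat with the label alone, with BBR under the label and in the interaction, Slc13a3 with the label alone and in the interaction, and Slc1a4 with BBR in the negative controls) kept their directions. Other genes were called in some: DESeq2 called 105, 3, 55, 5 and 10 genes (label alone, BBR in negative controls, BBR under the label, label under BBR, interaction), and edgeR called 621 genes with the label alone and 38 with BBR under the label without library 2 labelled knockdown, and at most 1 elsewhere. With the label alone the log2 fold change ran from -0.53 to -0.22 for Glul, -0.68 to -0.43 for Oat and 0.50 to 1.01 for Slc13a3, with lowest adjusted p-values of 0.0544, 0.0974 and 0.156. For Oat with BBR under the label it ran from 0.49 to 0.81 (lowest adjusted p 0.0504, by DESeq2), and for Slc1a4 with BBR in the negative controls from 0.25 to 0.83 (lowest 0.604).

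The median log2 fold change of the members with BBR under the label was 0.21, and 0.46 without libraries 3 and 4 labelled knockdown. Of the members, 3 were correlated with Glul, but 0 without libraries 3 and 4 labelled knockdown and 0 without library 3 labelled knockdown and library 2 of the negative controls with BBR. Leaving out each library in turn gave 0 to 3 (0 without library 1 or 4 labelled knockdown). The causes were not tested. With 1 library left out, the median log2 fold change of the members ran from -0.18 to 0.06 with the label alone, 0.15 to 0.35 with BBR in the negative controls, 0.12 to 0.37 with BBR under the label, -0.12 to 0.04 with the label under BBR and -0.04 to 0.21 for the interaction.

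The replicate numbers are not stated to pair mice. Same-numbered libraries deviated together with an r over 0.1 in 1, 0, 2 and 0 of 4 pairs in the first 4 comparisons. With the replicate block 0 members were called, and the log2 fold changes were -0.41 for Glul, -0.57 for Oat and 0.83 for Slc13a3 with the label alone, and 0.66 for Oat with BBR under the label. Slc1a4, Rhbg, Axin2 and Lgr5 had the lowest counts, with minima of 98, 157, 173 and 184 a library. Whether depth sets the width of their intervals was not tested.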
